A study of Rattus norvegicus with 6 samples.

Results

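Of 101603 accessible sites (ACS) in rat islets, 419 had as their nearest gene 1 of 10 genes that guide and hold together the cells of the islet. These were the secreted guidance ligands *Slit1*, *Slit2* and *Slit3*, their receptors *Robo1* and *Robo2*, the membrane-bound ephrin *Efna5*, the Eph receptors *Epha4* and *Epha5*, the adhesion molecule *Ncam1*, and *Gjd2*, which encodes the gap junction protein connexin 36. All ACS that the annotation assigned to 1 of these genes were taken, whatever their distance or values. The nearest gene is a position and was not shown to be the gene that a site regulates.

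Slit proteins bind Robo receptors and steer migrating cells and growing axons, mostly by repulsion. Eph receptors and ephrins both sit in the plasma membrane and signal in both directions where cells touch, and in islets A-type ephrins and Eph receptors are known to tune insulin release between neighbouring β-cells. NCAM and gap junctions hold and couple endocrine cells, with connexin 36 as the main connexin of β-cells, and Robo receptors are needed for the ordered arrangement of endocrine cell types in mouse islets.

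Chromatin accessibility was measured by ATAC-seq, in which the Tn5 transposase cuts and tags open DNA, in dissociated islet cells from 3 adult male Sprague–Dawley rats of around 90 days and from pups aged 10 days (P10), both sexes, of 3 litters. Each library was made from about 100000 unsorted cells, of 1 adult rat or of pooled pups. In the study, P10 pancreases were shaken by hand in collagenase, whereas in adults collagenase was injected into the pancreatic duct. Age, sex, pooling and the way of digestion therefore differ together between the groups and cannot be told apart. The libraries held 7916919 to 21168463 integrations in ACS, with fewer in each adult library than in any P10 library. Levels are given below as Tn5 integrations per 1000000 (CPM) after TMM scaling, in the order adult replicates 4, 5 and 6 and P10 replicates 1, 2 and 3. Log2 fold changes are adult over P10, tested with edgeR's quasi-likelihood F test. The test gives no standard error, so the SE given here is the absolute log2 fold change divided by the square root of F. Adjusted p-values are Benjamini-Hochberg values over all ACS, and a site was called Up or Down at p under 0.05 with an adjusted p under 0.2.

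Islet identity was checked at gene starts. Of 7 β-cell markers, 6 had an ACS within 1 kb of their start, and the summed level of these ACS was 163 to 225 CPM in adults and 208 to 339 in P10 islets, with *Ins1* and *Ins2* called Down. Summed levels were lower in adults for 4 of 5 duct markers (23.5 to 26.4 against 36.4 to 42.5 CPM, *Cftr*, *Muc1* and *Sox9* called Down) and for 3 of 4 δ- and PP-cell markers (20.3 to 25.4 against 30.4 to 38.7). The immune marker *Cd74*, the single gene of 5 immune markers with an ACS at its start, was higher in adults (26.4 to 36.7 against 15.9 to 17.6 CPM). The ranges overlapped for α-cell, acinar, endothelial, stromal, and Schwann and neural markers, and the glial genes *Sox10* and *Foxd3* had no ACS. In whole islets, fewer cells of a type and less accessibility per cell cannot be told apart, and the part of these lists in the results below was not tested.

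Of the 419 sites, 63 (15.0%) were more accessible in adults and 27 (6.44%) less accessible, where 12.3% of all ACS were called Up and 6.63% Down. With column sums in place of TMM, 12.6% of the sites were Up and 9.55% Down, where 10.3% of all ACS were Up and 10.6% Down. The shares lay near those of all ACS under both scalings, and the median log2 fold change was 0.07 over the 419 sites and -0.01 over all ACS. Adult values all lay above P10 values at 75 sites and below them at 46 sites, against 13.8% and 10.9% of all ACS. The median change was 0.86 at Up sites and -0.98 at Down sites. Up sites were wider and deeper (median width 449 bp, median mean count 126) than Down sites (329 bp and 40.8), so the Down calls rest on fewer integrations. In the fits that left out 1 library each, 34 Up and 10 Down sites kept their call every time. The share of all ACS that did so is not given here. The counts were 39 Up (9.31%) and 16 Down (3.82%) without P10 replicate 2, where 7.85% and 3.23% of all ACS were called. Without P10 replicate 3 they were 40 Up (9.55%) and 14 Down (3.34%), where 8.77% and 4.17% of all ACS were called. With the study's total reads as library sizes, the median of all ACS moved to -0.84, and 2 of the 63 Up sites kept their call, both upstream of *Efna5*.

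Most of the sites were distal, more than 10 kb from the gene start. Of 387 distal sites, 60 were Up and 25 Down, where 13.8% of all distal ACS were Up and 6.45% Down. Of 20 proximal sites, from 1 to 10 kb, 3 were Up and 1 Down, where 11.2% of all proximal ACS were Up and 6.71% Down. Of 12 sites in the TSS class, within 1 kb of the start, 0 were Up and 1 was Down, where 2.73% of all ACS of this class were Up and 7.87% Down. None of the 12 rose at an unadjusted p under 0.05 in edgeR, and 0 were called Up by DESeq2 or voom. Sites inside a gene numbered 168, with 37 Up (22.0%) and 12 Down (7.14%), beside 16.0% and 6.70% of all ACS inside genes. Sites upstream numbered 169, with 18 Up (10.7%) and 10 Down (5.92%), beside 12.3% and 6.61% of all upstream ACS.

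**Figure D1:**
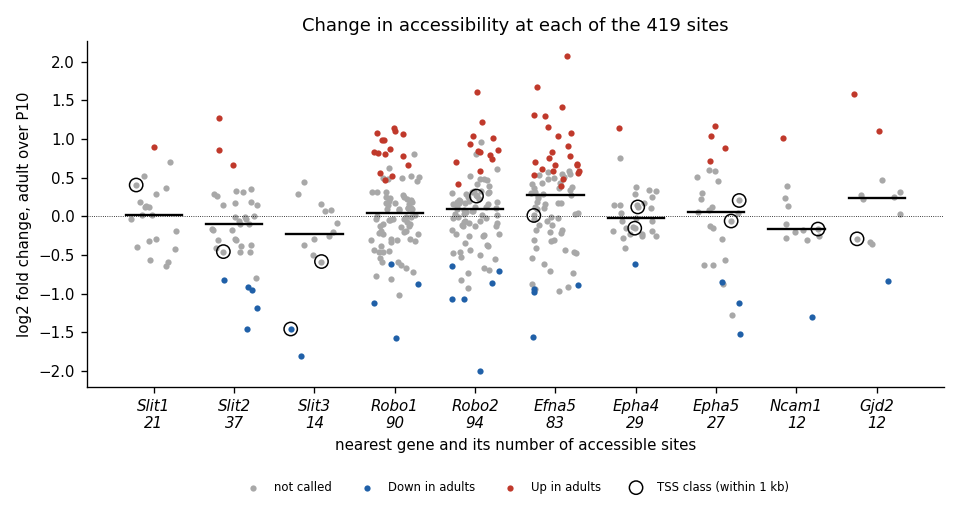
Log2 fold change (adult over P10) of each of the 419 sites, by nearest gene, with the number of sites under each name. Points are sites coloured by call, black lines are medians and circles mark the 12 TSS-class sites. *Efna5* holds 23 of the 63 Up sites and the highest value, 2.07, and the single circled site that was called is that of *Slit3*.

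The genes differed widely in how many sites they held. *Robo2* had 94, *Robo1* 90 and *Efna5* 83, ranks 24, 27 and 31 among 13834 genes with sites, whereas *Ncam1* and *Gjd2* had 12 each. *Efna5* had the highest share of Up sites among the 10 genes, 27.7%, and *Slit3* was the single gene with 0 Up sites (0 at an unadjusted p under 0.05 in edgeR, and 0 called by DESeq2 or voom). Beside 12.3% Up and 6.63% Down of all ACS, the shares were 16.7% and 4.44% in *Robo1* and 13.8% and 6.38% in *Robo2*. They were 8.11% and 13.5% in *Slit2*, 14.8% and 11.1% in *Epha5*, and 3.45% each in *Epha4*. *Ncam1* had 8.33% each, *Gjd2* 16.7% and 8.33%, and *Efna5* 4.82% Down. *Slit1* had 4.76% Up and *Slit3* 14.3% Down. When counts were summed over all sites of each gene, 10.5% of 13834 genes were called Up and 7.67% Down, and of the 10 genes *Efna5* was called Up and 0 were Down, with 0 falls at an unadjusted p under 0.05 in edgeR and 0 Down calls by DESeq2 or voom.

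Among the ligands, *Slit3* lost accessibility at its start. The site, chr10:19801305-19801617 in the Rn5 assembly of the deposited table, overlaps the gene start and read 1.45, 2.82 and 1.16 CPM in adults and 4.09, 5.85 and 5.29 in P10 islets. All adult libraries lay below all P10 libraries, and the log2 fold change was -1.46 (SE 0.35, adjusted p = 0.00717, edgeR). Leaving out each library in turn gave -1.93 to -1.25, with a call every time. The counts were low, 9 to 29 integrations in adult libraries and 82 to 100 in P10 libraries. The sum of stromal markers at gene starts overlapped between the ages (15.5 to 22.3 CPM in adults, 20.4 to 24.9 in P10). Those of duct and of δ- and PP-cell markers were lower in adults, and *Cd74* was higher, as given above. The part of any of them in the fall at *Slit3* was not tested.

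A weaker site 590 bp into *Slit3* read 0.99, 1.56 and 0.64 CPM in adults and 1.58, 1.57 and 1.74 in P10 islets (-0.58, SE 0.42, adjusted p = 0.478). A further site inside the gene, chr10:19931019-19931293, was also called Down. It read 0.72, 0.49 and 0.39 CPM in adults and 1.12, 2.28 and 2.43 in P10 islets (-1.80, SE 0.49, adjusted p = 0.0167), all adult values being the lower ones, from 3 to 8 integrations per adult library. The strongest *Slit3* site, 55746 bp into the gene, read 17.5, 11.9 and 14.6 CPM in adults and 14.3, 14.2 and 13.1 in P10 islets. Here the change was 0.08 (SE 0.21, adjusted p = 0.88) and turned negative under several scalings, so the gene's Down sites stood beside a strong site with overlapping groups.

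Promoter sequences are shown for *Slit3*, the gene whose start was called, and, chosen after the values were seen, for *Gjd2* and *Efna5*, whose start sites were not called. Each runs from 250 bases before to 50 bases after the gene start and was taken from RefSeq, assembly GRCr8. These positions were not converted to Rn5, so the overlap of promoter and ACS in bases was not measured. Capitals mark matches on either strand to the forkhead core TGTTTAC, the Scratch and Snail E-box CAGGTG, the AP-1 motif TGANTCA, the RFX core GTTGCCA, and the RE1 parts CAGCACC and GGACAGC.
Slit3, chr10:20075679-20075978, plus strand: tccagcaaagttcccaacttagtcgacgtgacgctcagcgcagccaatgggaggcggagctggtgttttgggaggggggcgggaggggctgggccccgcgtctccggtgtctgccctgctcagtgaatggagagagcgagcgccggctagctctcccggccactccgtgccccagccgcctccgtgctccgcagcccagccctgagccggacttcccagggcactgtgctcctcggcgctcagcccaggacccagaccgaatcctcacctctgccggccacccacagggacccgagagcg
Gjd2, chr3:121229318-121229617, minus strand: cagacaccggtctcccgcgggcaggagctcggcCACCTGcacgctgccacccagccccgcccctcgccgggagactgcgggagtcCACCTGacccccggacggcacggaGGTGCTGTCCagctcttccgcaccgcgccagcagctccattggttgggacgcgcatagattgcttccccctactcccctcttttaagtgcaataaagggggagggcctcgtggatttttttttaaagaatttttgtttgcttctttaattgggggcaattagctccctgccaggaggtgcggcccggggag
Efna5, chr9:110042138-110042437, minus strand: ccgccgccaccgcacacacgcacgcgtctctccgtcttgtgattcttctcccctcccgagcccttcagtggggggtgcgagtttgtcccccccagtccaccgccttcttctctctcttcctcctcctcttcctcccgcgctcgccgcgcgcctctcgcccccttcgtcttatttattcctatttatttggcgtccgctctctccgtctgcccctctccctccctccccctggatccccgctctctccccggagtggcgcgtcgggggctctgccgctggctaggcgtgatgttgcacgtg
All 3 are rich in G and C, with 69.3% in *Slit3*, 62.0% in *Gjd2* and 65.7% in *Efna5*, beside a median of 51.7% over 33465 rat promoters. They hold 24, 20 and 29 CpG dinucleotides, beside a median of 7. *Slit3* and *Efna5* held none of the 6 motifs. *Gjd2* held 2 E-box matches, a motif present in 18.8% of promoters, and 1 match to each RE1 part, present in 6.78% (CAGCACC) and 6.59% (GGACAGC) of promoters. Both RE1 matches come from the single stretch GGTGCTGTCC, at positions 110-116 and 113-119, on the minus strand of the sequence shown. They share bases and so are not 2 separate parts of an RE1. RE1 is the element bound by the repressor REST, and *Gjd2* is known as a REST target. A match describes letters in this window and not binding. RefSeq promoters were found for 6 of the 10 genes, with no entry for *Slit1*, *Slit2*, *Epha4* and *Ncam1*. Those of *Robo1*, *Robo2* and *Epha5* were found but are not shown. Not all of these were rich in G and C, with 45.7% and 57.3% in the 2 *Robo1* promoters, 68.3% in *Robo2* and 44.7% in *Epha5*. The *Robo1* promoter with 57.3% held 1 E-box match, and the others not shown held none of the 6 motifs.

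*Slit2* carried calls in both directions, 3 Up and 5 Down of 37 sites. Its start site, chr14:67201785-67202656, read 10.0, 11.3 and 12.6 CPM in adults and 14.2, 16.8 and 15.4 in P10 islets. Adults lay below P10 throughout, but the change of -0.46 (SE 0.21) had an adjusted p of 0.209 (edgeR) and missed the limit. The call depended on the processing: it was made without P10 replicate 1 (-0.52, adjusted p = 0.151), with column sums (-0.55, adjusted p = 0.0999), total reads (-1.29, adjusted p = 0.00241), DESeq2 (-0.47, adjusted p = 0.175), cyclic loess (-0.58, adjusted p = 0.0828), filterByExpr (-0.46, adjusted p = 0.199) and a filter on a mean of 50 counts (-0.54, adjusted p = 0.0853), but not with voom (-0.45, adjusted p = 0.215) or without any other library (adjusted p between 0.216 and 0.479). With 5 neighbouring sites around it, this site formed a run of 6 sites over 59262 bp with negative changes, of which 1 was called Down. Runs, here and below, were picked from the values as at least 6 neighbouring sites with changes of the same sign. Their shared direction is therefore part of the definition, and runs were not counted over all ACS. Runs with 0 called sites were found at *Robo2* (6 sites over 155005 bp and 7 over 45474 bp) and *Ncam1* (6 over 203211 bp). A further *Efna5* run of 7 sites over 73133 bp held 2 Up sites. These are not described below.

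Inside *Slit2*, a pair of distal sites moved in opposite directions. The gene's strongest site, chr14:67126404-67127341, rose from 15.2, 18.1 and 15.3 CPM in P10 islets to 23.4, 25.3 and 28.1 in adults (0.66, SE 0.19, adjusted p = 0.0244). The other, chr14:67104134-67104817, fell from 13.2, 14.7 and 17.9 CPM to 10.6, 7.89 and 7.22 (-0.83, SE 0.23, adjusted p = 0.0208). Neither pair of groups overlapped, and both calls were kept whichever library was left out.

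Far upstream of *Slit2*, called sites again went both ways. At chr14:68582914-68583239, 1381311 bp upstream, adults read 3.07, 2.43 and 3.74 CPM and P10 islets 5.25, 6.13 and 6.34 (-0.95, SE 0.29, adjusted p = 0.0402). At chr14:68500485-68500721 adults read 2.35, 3.31 and 3.09 and P10 islets 0.65, 0.999 and 1.96 (1.27, SE 0.41, adjusted p = 0.0489), a call lost without P10 replicate 1 (0.94, adjusted p = 0.202). The other Up site, named after its values were seen, lay 1332926 bp upstream (0.86, SE 0.31, adjusted p = 0.0841), with overlapping groups. The other 3 Down sites, named likewise, lay 9472, 279250 and 1191122 bp upstream, with changes of -1.19, -1.46 and -0.91. The Up call was lost without adult replicate 4, P10 replicate 1 or P10 replicate 2 (adjusted p between 0.233 and 0.321). Of the Down calls, the nearest was kept without adult replicate 4 alone, the next was lost without adult replicate 4 or 5 or P10 replicate 1 or 3, and the farthest was lost without adult replicate 5 or 6 or P10 replicate 2 (adjusted p between 0.214 and 0.504).

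*Slit1* had the fewest calls among the ligands, 1 Up and 0 Down of 21 sites, with 1 site falling at an unadjusted p under 0.05 in edgeR and 0 called Down by DESeq2 or voom. The start site, chr1:268444865-268445274, read 4.79, 5.45 and 6.96 CPM in adults and 4.65, 4.21 and 4.02 in P10 islets, so adults lay higher without a call (0.41, SE 0.28, adjusted p = 0.443). The strongest site, 58800 bp upstream, read 62.4, 59.9 and 50.7 CPM in adults and 51.8, 54.6 and 46.0 in P10 islets (0.18, SE 0.16, adjusted p = 0.56). The called site, 168564 bp from the start beyond the 3′ end, read 10.3, 5.26 and 3.35 CPM in adults and 3.90, 4.42 and 2.06 in P10 islets. Its groups overlapped, the change of 0.89 (SE 0.35, adjusted p = 0.117) rested on adult replicate 4, and it was not called without that library (0.34, adjusted p = 0.682) or without P10 replicate 3 (0.60, adjusted p = 0.434).

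**Figure D2:**
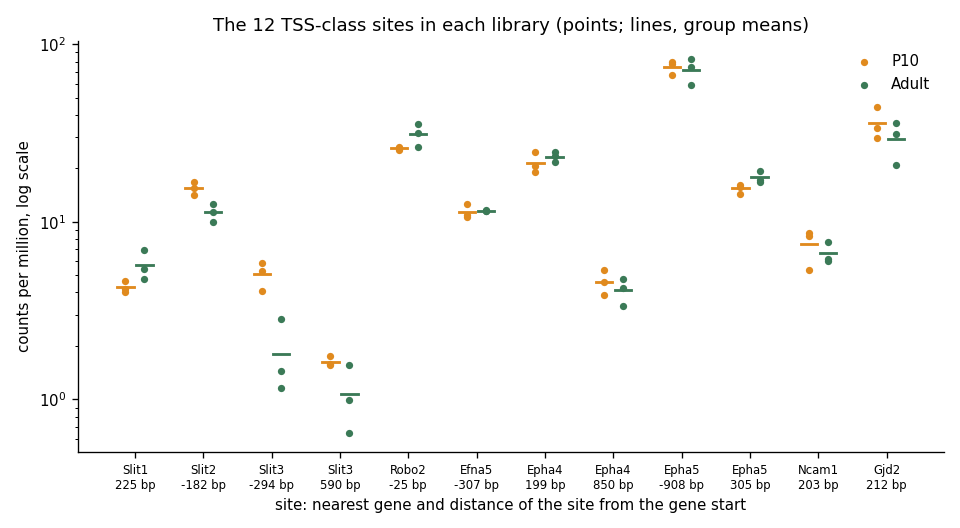
Level in CPM (log axis) of the 12 TSS-class sites in each library, with P10 to the left and adult to the right of each name, the distance from the gene start under it, and lines at the group means. *Slit3* at -294 bp is the single site with a call, from 4.09 to 5.85 CPM in P10 islets and 1.16 to 2.82 in adults.

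Among the receptors, *Robo1* had 15 Up and 4 Down sites of 90, and 13 of the Up sites lay inside the gene, which spans 919992 bp in the deposited annotation. These were 21.3% of its 61 inside sites, beside 16.0% of all ACS inside genes, and the median change of the inside sites was 0.10. Split at the gene's midpoint, the 3′ part held 12 Up and 1 Down of 37 sites, and the 5′ part 1 Up and 1 Down of 24. All 13 lay between 446920 and 865969 bp from the annotated start, a stretch of 6 neighbouring sites over 86822 bp holding 3 of them. This split was chosen after the values were seen. Of the 15 Up sites, 10 were called in every fit that left out a library. *Robo1* had no TSS-class site. RefSeq lists 2 promoters for the gene in GRCr8, 646739 bp apart, and which ACS lies at the second was not determined in Rn5.

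The *Robo1* site with the smallest p, chr11:13335703-13336399, was near evenly low in P10 islets. It read 35.7, 27.1 and 36.9 CPM in adults and 16.0, 16.1 and 15.3 in P10 islets (1.07, SE 0.19, adjusted p = 0.000319). The next, chr11:13877437-13878082, beyond the 3′ end and 988654 bp from the start, read 34.9, 37.9 and 39.2 CPM in adults and 20.3, 16.3 and 19.4 in P10 islets (0.99, SE 0.18, adjusted p = 0.000381). At both, the lowest adult value exceeded the highest P10 value. The gene's strongest site, 514905 bp from the start, stood between these without a call (52.4, 38.4 and 50.5 CPM in adults, 43.9, 41.2 and 42.3 in P10, log2 fold change 0.15, SE 0.16, adjusted p = 0.681).

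The *Robo1* Down sites were lower in level. Inside the gene, chr11:13650109-13650502 read 0.90, 1.66 and 0.52 CPM in adults and 2.46, 4.92 and 2.22 in P10 islets (-1.58, SE 0.44, adjusted p = 0.0201). Beyond its 3′ end, chr11:13999798-14000331 read 8.04, 7.60 and 9.80 CPM in adults and 13.1, 17.9 and 15.7 in P10 islets (-0.88, SE 0.23, adjusted p = 0.0119). Adults were the lower group at both, without overlap. The other 2 Down sites, named after their values were seen, lay 873963 bp upstream (-0.61, SE 0.25, adjusted p = 0.138) and 212588 bp inside (-1.12, SE 0.40, adjusted p = 0.0815), and the first lost its call without adult replicate 4, adult replicate 6 or P10 replicate 2 (adjusted p between 0.255 and 0.358), the other without adult replicate 4 or P10 replicate 3 (adjusted p between 0.205 and 0.292).

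*Robo2*, 13 Up (13.8%) and 6 Down (6.38%) of 94 sites, near the shares of all ACS, had its strongest site at the start, chr11:15253418-15254158. This site read 35.4, 26.4 and 31.6 CPM in adults and 26.2, 26.2 and 25.4 in P10 islets. Adults lay above P10 by a small margin, with no call (0.26, SE 0.17, adjusted p = 0.426). A proximal site 5116 bp into the gene, chr11:15248277-15248485, was called Up, with 5.06, 2.82 and 3.22 CPM in adults and 1.58, 1.21 and 0.85 in P10 islets (1.60, SE 0.38, adjusted p = 0.00591). Both belonged to a run of 6 neighbouring sites over 16711 bp with positive changes, in which this proximal site alone was called.

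Distant *Robo2* sites included the deepest fall among the 419. At chr11:15835878-15836151, 582485 bp upstream, adults read 0.36, 0.39 and 0.39 CPM, from 3 or 4 integrations per library, and P10 islets 1.77, 1.07 and 1.74 (-2.00, SE 0.50, adjusted p = 0.0102). DESeq2 gave no adjusted p for this site. Upstream at 780255 bp, chr11:16033648-16034034 went the other way, with 8.04, 4.97 and 7.99 CPM in adults and 2.51, 3.00 and 3.49 in P10 islets (1.22, SE 0.29, adjusted p = 0.00718). A Down site 384295 bp upstream, with 2.44, 0.88 and 2.84 CPM in adults and 3.81, 3.99 and 4.92 in P10 islets (-1.07, SE 0.36, adjusted p = 0.0665), was not called without adult replicate 5 (-0.69, adjusted p = 0.248) or P10 replicate 3 (-0.96, adjusted p = 0.228). Of the gene's 13 Up sites, 5 kept their call in every fit that left out a library, and of its 6 Down sites 1 did.

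**Figure D3:**
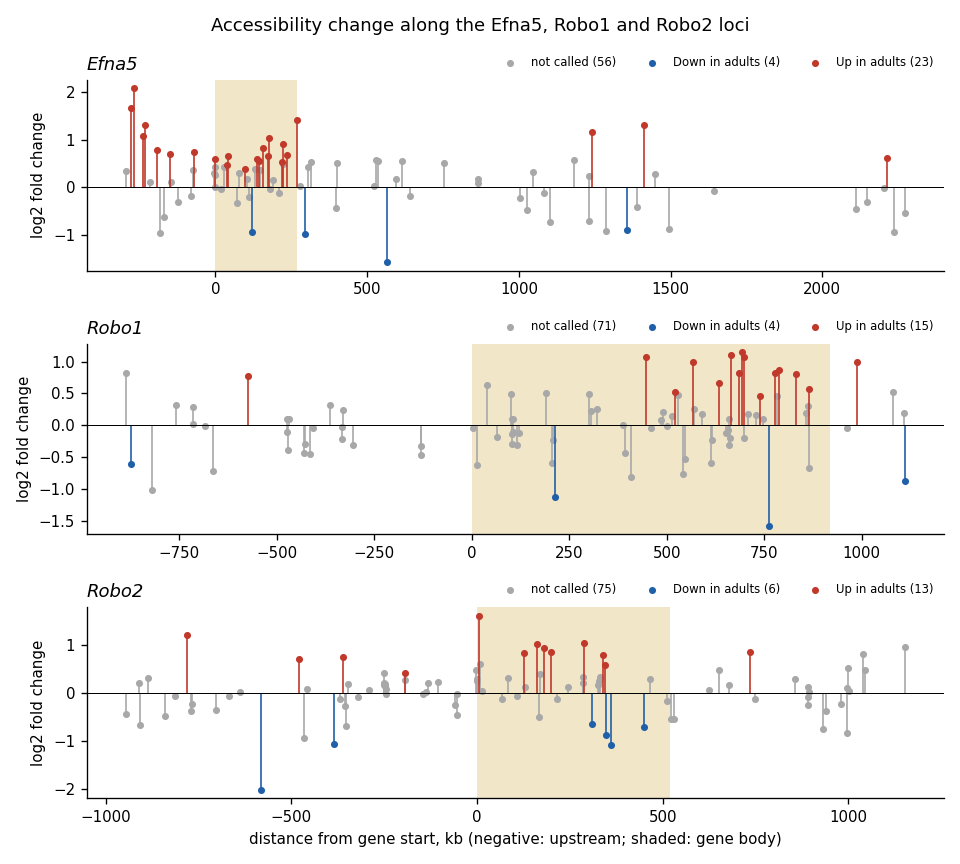
Log2 fold change (adult over P10) of each site of *Efna5*, *Robo1* and *Robo2* against its distance from the annotated gene start in kb, negative upstream, with the gene body shaded and sites coloured by call. The Up sites of *Robo1* inside the gene lie from 446920 bp onwards. Those of *Efna5* lie inside the gene (12 of 25 sites), upstream (8 of 20) and downstream (3 of 38).

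*Efna5*, the ephrin ligand of A-type Eph receptors, held the most Up sites. Of its 83 sites 23 were Up and 4 Down, and 12 of the Up sites kept their call in every fit that left out a library. Inside the gene 12 of 25 sites were Up, upstream 8 of 20, and downstream 3 of 38. Of all ACS, 16.0% were Up inside genes, 12.3% upstream and 12.5% downstream. The start site, chr9:109898157-109898773, was level, with 11.5, 11.7 and 11.5 CPM in adults and 12.6, 11.0 and 10.7 in P10 islets (0.01, SE 0.22, adjusted p = 0.985), and its sign changed with the scaling.

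The strongest change among the 419 sites was upstream of *Efna5*. At chr9:110166297-110166681, 268447 bp upstream, adults read 22.0, 19.96 and 22.8 CPM and P10 islets 6.41, 4.21 and 4.65. The adult libraries were close to each other and far above the P10 libraries (2.07, SE 0.23, adjusted p = 1.01e-06), and leaving out each library in turn gave 1.94 to 2.27. It belonged to a run of 7 neighbouring sites over 105355 bp with positive changes, of which 5 were Up, with a median change of 1.09. In this run, and named after the values were seen, the site 278602 bp upstream read 7.32, 7.50 and 7.48 CPM in adults and 2.37, 2.57 and 2.06 in P10 islets (1.67, SE 0.28, adjusted p = 0.000245). These 2 sites were also the ones called Up with total reads as library sizes, with changes of 1.20 and 0.83.

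Inside *Efna5*, a run of 7 sites over 45127 bp held 5 Up sites, among them the gene's strongest, chr9:109739579-109740465. It read 98.0, 74.7 and 90.8 CPM in adults and 60.0, 39.7 and 47.8 in P10 islets (0.83, SE 0.17, adjusted p = 0.00134), with every adult library the higher. A run of 6 sites over 58049 bp across the 3′ end of the gene held 4 Up sites. Far beyond that end, chr9:108486805-108487469, 1411045 bp from the start, read 49.9, 34.2 and 35.7 CPM in adults and 15.9, 16.6 and 15.9 in P10 islets (1.31, SE 0.19, adjusted p = 2.8e-05), again without overlap.

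The 4 Down sites of *Efna5* had low counts, and each call was lost in some fits that left out a library. At chr9:109332420-109332661 adults read 0.72, 0.10 and 0.65 CPM, from 1 to 8 integrations, and P10 islets 0.98, 1.64 and 1.74 (-1.56, SE 0.54, adjusted p = 0.0673), with no call without adult replicate 5 (-1.05, adjusted p = 0.24) or P10 replicate 3 (-1.41, adjusted p = 0.223). DESeq2 gave no adjusted p for this site. At chr9:109601077-109601405 adults read 1.54, 1.36 and 1.93 CPM and P10 islets 2.60, 3.42 and 3.49 (-0.98, SE 0.36, adjusted p = 0.0906), with no call without P10 replicate 2 (-0.94, adjusted p = 0.25) or P10 replicate 3 (-0.92, adjusted p = 0.248). The other 2, named after their values were seen, lay 121323 bp inside (-0.94, adjusted p = 0.105) and 1357785 bp from the start beyond the 3′ end (-0.89, adjusted p = 0.198). The first was not called without adult replicate 6 or P10 replicate 2 or 3 (adjusted p between 0.267 and 0.389), nor the second without adult replicate 4 or 6 or P10 replicate 2 or 3 (adjusted p between 0.287 and 0.545).

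The Eph receptors among the 10 genes had fewer sites than *Efna5*, 27 at *Epha5* and 29 at *Epha4*. *Epha5* had 4 Up (14.8%) and 3 Down (11.1%), beside 12.3% and 6.63% of all ACS. Both of its start sites were without a call. The site 908 bp upstream, the strongest of the gene, read 82.3, 59.3 and 74.1 CPM in adults and 67.2, 80.0 and 77.8 in P10 islets (-0.06, SE 0.16, adjusted p = 0.886), with the P10 values inside the adult range. The site 305 bp into the gene read 19.4, 16.8 and 17.3 CPM in adults and 16.2, 15.8 and 14.4 in P10 islets (0.21, SE 0.20, adjusted p = 0.618).

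Inside *Epha5*, 3 called sites lay close together, from 36101 to 42500 bp past the start. At chr14:25457545-25458227 adults read 66.9, 43.0 and 51.9 CPM and P10 islets 29.7, 19.97 and 28.9 (1.04, SE 0.19, adjusted p = 0.000468). At chr14:25454200-25454541 adults read 21.4, 13.2 and 18.9 CPM and P10 islets 9.25, 8.34 and 6.13 (1.17, SE 0.24, adjusted p = 0.00137). Both were higher in every adult library. At chr14:25460599-25460925 adults read 1.63, 1.36 and 1.80 CPM and P10 islets 2.88, 2.85 and 2.91 (-0.86, SE 0.36, adjusted p = 0.151), a Down call kept in 1 of the 6 fits that left out a library, without adult replicate 6 (-0.94, adjusted p = 0.197), the other 5 giving adjusted p between 0.21 and 0.30.

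Upstream of *Epha5*, chr14:24990161-24990769 fell from 12.2, 12.5 and 11.4 CPM in P10 islets to 5.06, 4.09 and 7.61 in adults (-1.12, SE 0.26, adjusted p = 0.00459). The remaining called sites, named after their values were seen, were Up at 559318 bp upstream (0.89, SE 0.28, adjusted p = 0.0417) and 198913 bp inside (0.72, SE 0.28, adjusted p = 0.112), and Down at 273280 bp inside (-1.52, SE 0.47, adjusted p = 0.0402). The Up call inside was lost without adult replicate 5 or P10 replicate 1 or 2 (adjusted p between 0.283 and 0.331), and the Down call without P10 replicate 3 (-1.27, adjusted p = 0.205).

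*Epha4* had 1 Up and 1 Down of 29 sites. The site at its start, chr9:83022245-83022824, was its strongest, with 24.7, 21.6 and 23.6 CPM in adults and 19.1, 24.6 and 20.6 in P10 islets (0.12, SE 0.19, adjusted p = 0.781). A weaker one 850 bp into the gene read 3.34, 4.77 and 4.25 CPM in adults and 4.56, 5.35 and 3.86 in P10 islets (-0.15, SE 0.29, adjusted p = 0.835). The groups overlapped at both.

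The *Epha4* Up site, chr9:83312455-83312920, lay 290011 bp upstream and read 27.3, 18.7 and 30.9 CPM in adults and 11.4, 10.1 and 13.3 in P10 islets (1.14, SE 0.21, adjusted p = 0.000714), with all adult values higher. The Down site, 90815 bp upstream, read 7.77, 6.33 and 8.25 CPM in adults and 9.76, 12.5 and 12.1 in P10 islets (-0.62, SE 0.24, adjusted p = 0.107). This call was lost without adult replicate 5 (-0.51, adjusted p = 0.242), P10 replicate 2 (-0.57, adjusted p = 0.313) or P10 replicate 3 (-0.59, adjusted p = 0.25).

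*Ncam1*, whose product mediates adhesion between endocrine cells, had 1 Up and 1 Down of 12 sites. At chr8:52622472-52622884, 133085 bp into the gene, adults read 1.63, 2.05 and 1.93 CPM and P10 islets 4.88, 4.49 and 4.39. The groups lay far apart (-1.30, SE 0.32, adjusted p = 0.00979). The Up site, 225684 bp upstream and named after its values were seen, had overlapping groups (5.33, 2.92 and 5.80 CPM in adults, 2.97, 2.50 and 1.43 in P10, log2 fold change 1.01, SE 0.35, adjusted p = 0.0669), and its call was lost without adult replicate 4, adult replicate 6 or P10 replicate 3 (0.74 to 0.90, adjusted p between 0.2 and 0.305).

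At the *Ncam1* start, chr8:52755354-52755780, the groups overlapped, with 6.05, 7.69 and 6.19 CPM in adults and 8.69, 8.34 and 5.34 in P10 islets (-0.16, SE 0.26, adjusted p = 0.797). The strongest site, 87478 bp inside, read 10.6, 10.8 and 11.5 CPM in adults and 13.7, 12.6 and 11.6 in P10 islets (-0.21, SE 0.22, adjusted p = 0.657). Of the 12 sites 4 had positive changes.

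*Gjd2*, a short gene with no site inside it, had 2 Up and 1 Down of 12 sites, and all 3 calls were made in every fit that left out a library. The start site, chr3:112043713-112044949, read 36.0, 31.4 and 21.0 CPM in adults and 44.5, 29.8 and 33.9 in P10 islets. The groups overlapped (-0.29, SE 0.20, adjusted p = 0.433), and the sum over β-cell markers at gene starts overlapped too. Beyond the 3′ end, 8761 bp from the start, chr3:112035164-112035466 read 6.78, 5.84 and 6.70 CPM in adults and 3.44, 1.64 and 1.22 in P10 islets (1.59, SE 0.34, adjusted p = 0.00248).

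The other *Gjd2* Up site, chr3:111964482-111965027, 79443 bp from the start, read 15.8, 13.7 and 11.5 CPM in adults and 8.27, 6.35 and 4.49 in P10 islets (1.10, SE 0.25, adjusted p = 0.0044). The Down site, 13218 bp upstream, read 3.34, 4.38 and 3.22 CPM in adults and 7.76, 6.35 and 5.45 in P10 islets (-0.83, SE 0.28, adjusted p = 0.0661). None of these 3 had overlapping groups. The strongest *Gjd2* site, 16515 bp from the start beyond the 3′ end, read 53.3, 39.9 and 42.2 CPM in adults and 43.5, 33.5 and 35.2 in P10 islets (0.27, SE 0.17, adjusted p = 0.391).

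**Figure D4:**
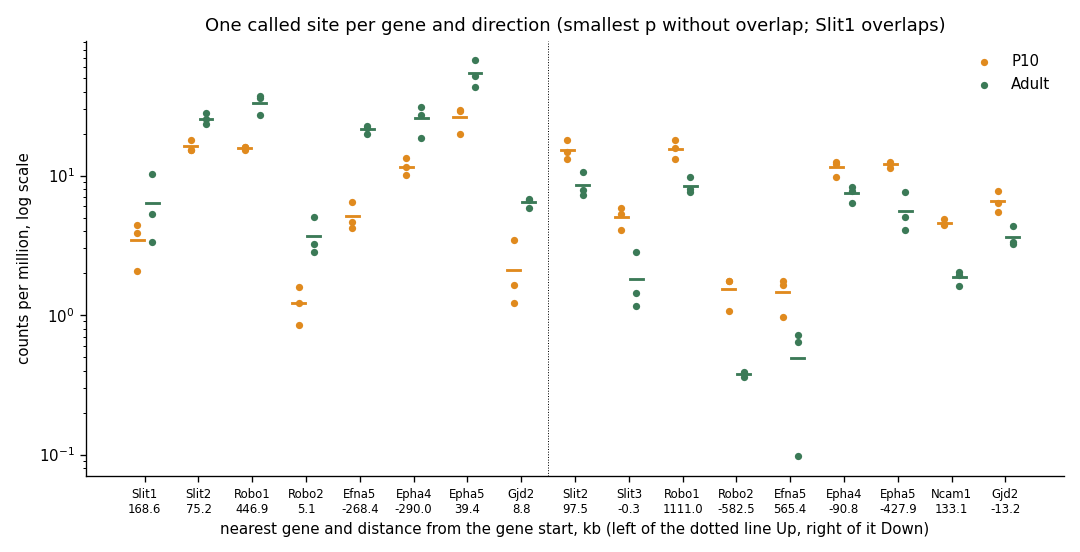
Level in CPM (log axis) in each library of 1 called site per gene and direction, that with the smallest p among sites whose groups do not overlap, or for *Slit1* its single called site, with P10 to the left and adult to the right, lines at the group means, and the distance from the gene start in kb under each name. Up sites stand left of the dotted line and Down sites right of it, and the groups overlap at the *Slit1* site and at no other site drawn. The single Up site of *Ncam1*, whose groups overlap, is not drawn.

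Summed over all its sites, *Efna5* read 921, 802 and 939 CPM in adults and 650, 649 and 686 in P10 islets. The adult libraries were all higher (0.42, SE 0.15, adjusted p = 0.109 over 13834 genes, edgeR), but the call did not hold without adult replicate 4 (0.40, adjusted p = 0.295), adult replicate 6 (0.38, adjusted p = 0.257) or P10 replicate 2 (0.41, adjusted p = 0.424). With total reads as library sizes the value was -0.41. On that scale the median over single ACS was -0.84, and the median over summed genes is not given here. *Epha5* (0.26, SE 0.12, adjusted p = 0.228) and *Robo1* (0.27, SE 0.14, adjusted p = 0.272) were not called, although *Robo1* was with DESeq2 (adjusted p = 0.0968) and *Epha5* without adult replicate 5 (0.33, adjusted p = 0.14) or P10 replicate 3 (0.34, adjusted p = 0.177). *Gjd2* (0.15, SE 0.12) was called without P10 replicate 1 alone (0.27, adjusted p = 0.144). The others lay between -0.17 for *Slit3* and 0.18 for *Robo2*, with adjusted p from 0.389 to 0.821.

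**Figure D5:**
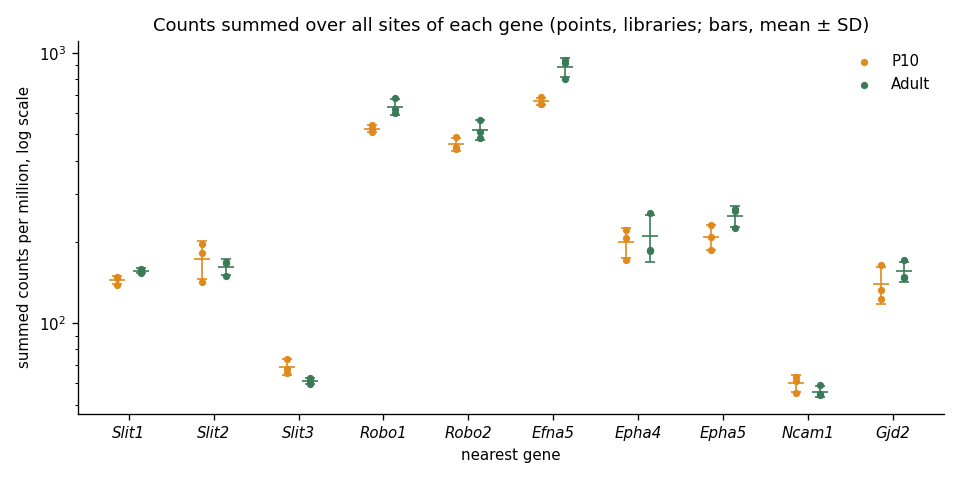
CPM summed over all sites of each gene (log axis), with libraries as points and mean ± SD as bars, P10 left and adult right. *Efna5* reads 802 to 939 in adults and 649 to 686 in P10 islets, and *Slit3* 59.7 to 62.8 in adults and 65.2 to 73.9 in P10 islets.

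Among 59 partner genes of these pathways, 49 had sites, 545 in all, of which 76 (13.9%) were Up and 49 (8.99%) Down, beside the 12.3% and 6.63% of all ACS. By list, the Slit and Robo partners had 22 Up and 29 Down (17.2%) of 169 sites, 14 of the Down sites at *Flrt3* and 5 at *Sos1*, the Eph and ephrin genes 34 Up (15.2%) and 13 Down (5.80%) of 224, the NCAM partners 17 Up (15.6%) and 4 Down (3.67%) of 109, and the connexins 3 Up and 3 Down of 43. Of the 45 TSS-class sites of all lists 1 was Up and 6 Down, where 2.73% and 7.87% of all ACS of this class were. The start of *Flrt3*, whose product binds Robo receptors, read 18.7, 19.4 and 15.3 CPM in adults and 28.6, 41.2 and 39.5 in P10 islets (-1.03, SE 0.19, adjusted p = 0.000604), without overlap. The starts of the Eph receptors *Epha2* (-0.76, adjusted p = 0.113) and *Ephb3* (-0.38, adjusted p = 0.128), the ephrin *Efna4* (-0.66, adjusted p = 0.166) and the connexin *Gjc1* (-1.04, adjusted p = 0.128) were also Down, and that of *Epha10* was Up with overlapping groups (0.67, adjusted p = 0.18). With counts summed per gene, 9 of the 49 genes were Up (18.4%) and 5 Down (10.2%), where 10.5% and 7.67% of all genes were. *Flrt3* fell (-0.66, SE 0.13, adjusted p = 0.00692), and *Srgap1*, a GTPase-activating protein that acts below Robo receptors, rose (0.45, SE 0.11, adjusted p = 0.0299), as did *Vav3*, an exchange factor that acts below Eph receptors (0.52, SE 0.13, adjusted p = 0.0315).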

How the data were processed

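ATAC-seq libraries of rat islet cells were analysed, 3 adult and 3 P10. The authors aligned reads to Rn5 with BWA 0.7.13, discarded mitochondrial reads and those with a mapping quality under 30 with SAMtools 1.3, called peaks with MACS2 2.1.1 on the concatenated libraries of each age, joined both peak sets, and deposited raw counts of Tn5 integrations, not normalized, for every ACS in every library (tools and versions from the submitters' processing notes and the study's methods). Removal of PCR duplicates is not given in the sources used here, so standard errors hold for the counts as they stand. The nearest gene and distance are those of the deposited table. Its columns of the authors' own comparison (fold change, average level, F, p and FDR) were not used.

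Of 101941 entries, 101603 are distinct ACS, and each was tested once. Counts were scaled by TMM and tested with edgeR 4.0.16 in R 4.3.3 (quasi-likelihood, age as the only term), with Benjamini-Hochberg adjustment over all ACS. A second fit used counts summed over the ACS of each of 13834 genes. The code was tested on simulated counts. Replicates of an age differed by more than counting error (chi-square per degree of freedom 3.35 to 7.81), so none was counted as a repeat. Adult libraries came from separate rats and P10 libraries from separate litters.

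The 10 genes, the partner and marker lists and the rule for described sites were chosen with earlier results of these data known. The rule takes every TSS-class site, up to 2 Up and 2 Down sites per gene with the smallest p whose groups do not overlap (otherwise the site with the smallest p), the site with the highest mean CPM, and the 6 partner TSS-class sites with the smallest p. Alternatives were column sums or total reads as library sizes, DESeq2 1.42.0, limma 3.58.1 (voom, or cyclic loess with limma-trend), filterByExpr, a mean of at least 50 counts, every listed entry, an FDR limit of 0.05, and leaving out 1 library at a time. Promoters came from RefSeq (GRCr8). Sequences of the ACS were not used here. Plots used matplotlib 3.10.9 (Python 3.11.15).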

Additional observations from a re-analysis of the deposited data

How the results depend on the processing

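Of the 419 sites, 63 were called Up and 27 Down. These counts were 52 to 63 and 20 to 40 under column sums, DESeq2, voom, cyclic loess, filterByExpr, a mean of at least 50 counts and every listed entry. The sites called were not all the same. Cyclic loess kept 51 of the Up and 22 of the Down sites. The filter on a mean of 50 counts tested 216 of the 419 sites and kept 52 Up and 11 Down sites. There 24.1% of the tested sites were Up and 9.26% Down, where 15.4% and 11.8% of all tested ACS were. DESeq2 gave no adjusted p for 4 of the 27 Down sites. The counts were 32 and 10 at an FDR under 0.05 (7.06% and 1.91% of all ACS were called there), 2 and 220 with total reads as library sizes (0.477% and 52.5%, where 1.05% and 60.7% of all ACS were called), and 39 to 68 and 14 to 35 when each library was left out. On summed counts, 1 gene was Up and 0 were Down. The Up count was 0 with total reads, cyclic loess or an FDR under 0.05, 2 with DESeq2 (*Efna5* and *Robo1*), and 0 to 2 when each library was left out. The Down count was 1 with column sums and 10 with total reads. The median log2 fold change of all ACS was -0.01 with TMM, -0.10 with column sums and -0.84 with total reads. Total reads also count reads outside ACS, and in the study they overlapped between adult and P10 libraries. Integrations in ACS did not overlap, with 7916919 to 11903909 in adults and 13491534 to 21168463 in P10 islets. Each adult library thus held fewer integrations in ACS for its total reads than any P10 library, and why was not tested.

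With total reads, 31 of the 63 Up sites had a negative change, 14 of them at *Efna5*, 9 at *Robo1*, 6 at *Robo2* and 1 each at *Epha5* and *Slit2*, and 0 of the 27 Down sites a positive one. Among the sites described by rule, signs turned at the start sites of *Slit1* (-0.45), *Robo2* (-0.58), *Epha4* (-0.70) and *Efna5* (-0.84), at the *Epha5* site 305 bp into the gene (-0.64), and at the strongest sites of *Slit1* (-0.65), *Slit2* (-0.17), *Slit3* (-0.76), *Robo1* (-0.70), *Efna5* (-0.036) and *Gjd2* (-0.59). So did the sums of *Robo1* (-0.57), *Robo2* (-0.66), *Slit1* (-0.73), *Epha4* (-0.76), *Epha5* (-0.56), *Efna5* (-0.41) and *Gjd2* (-0.71). Values near 0 also turned elsewhere. The *Efna5* start site read -0.0807 with column sums, -0.000882 with DESeq2, -0.119 with cyclic loess, -0.0713 with the filter on a mean of 50 counts, and -0.0479 to 0.0814 when each library was left out, negative without P10 replicate 2 or 3. The strongest *Slit3* site read -0.015 with column sums, -0.0104 with that filter, -0.0617 with cyclic loess, and -0.0696 to 0.218 when each library was left out, negative without adult replicate 4. The *Epha5* site 908 bp upstream read -0.17 to 0.0625 when each library was left out, positive without adult replicate 5. Sums read -0.0296 for *Robo2* and -0.0112 for *Slit1* with cyclic loess, and for *Epha4* -0.023 with column sums, -0.0916 with cyclic loess, and -0.102 to 0.149 when each library was left out, negative without adult replicate 6 or P10 replicate 1.

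No paired analysis was possible because the groups share no replicate numbers (adult 4 to 6, P10 1 to 3). The adult libraries held the fewest integrations in ACS, and sites with few counts allow the least precision.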
